A study of Mus with 2 samples.

Results

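Genes for heat-shock proteins, other chaperones and the unfolded protein response were followed in kidney cells of senescent and of young C57BL/6 mice. The members were chosen by gene name in the authors' deposited table: the Hspa, Hspb, Hsp90, Hspd, Hspe, Hsph, Dnaja, Dnajb, Dnajc, Pdia and Cct families, with Calr, Canx, Ddit3, Atf4, Xbp1, Herpud1, Sdf2l1 and Tcp1. This gave 67 of 8191 genes, and 176 of the 20111 entries that pair a gene with a cluster. By compartment, 30 of the genes act in the cytosol, 19 in the endoplasmic reticulum and 8 in mitochondria. A further 3 are stress transcription factors of the nucleus, and 7 have another or an unsure location.

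Chaperones bind proteins that are not yet folded or have lost their fold. In the cytosol, Hsp70 proteins work with J-domain co-chaperones (the Dnaj families), which deliver clients and start ATP hydrolysis, with Hsp90, and with the ring-shaped chaperonin TRiC, which folds actin and tubulin. Heat and other stress induce part of this set through the transcription factor Hsf1. In the endoplasmic reticulum, the Hsp70 protein BiP, the lectins calnexin and calreticulin and the disulfide isomerases fold secreted and membrane proteins, and misfolded protein there switches on the transcription factors Xbp1, Atf4 and Ddit3. In mitochondria, which are dense in proximal tubule cells, Hspa9 helps to pull proteins through the inner membrane and the Hspd1 and Hspe1 chamber folds them.

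Cell suspensions of whole kidneys were sequenced as single cells in droplets, in 1 library of senescent mice and 1 library of young mice. Both are labelled C57BL/6, and the series states 4408 cells for the senescent and 10895 for the young mice. The sources used here do not give their ages, sexes or number per library. Values are means per cell, scaled by the authors, within 7 clusters that they labelled Marco, T, B, Neutro, PT, LOH and endo, and these labels are kept.

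In the authors' deposited table a cluster holds only genes with a p under 0.05 whose log2 fold change was 0.36 or more in size, so every listed member had to differ, and nothing can be said of one that is missing from a cluster. Each mean is of 1 library and stands without an SD, since no spread between mice can be had. An entry is said here to pass where its adjusted p in the authors' deposited table was at most 0.05, and to be called where its absolute log2 fold change was also at least 1. That p measures spread between cells, so it also moves with how many cells a cluster had, a number not stated in the sources used here. Depth is unknown, and no counting interval was computed.

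The cluster labels could be checked only with listed genes. All 11 macrophage markers were listed in Marco with summed means of 538 in the senescent and 81.2 in the young library, all 9 T cell markers in T with 73.6 and 20.2, and 6 of 7 B cell markers in B with 195.7 and 70.8. In Neutro 2 of 6 neutrophil markers were listed with 2632 and 1149, and in LOH 1 of 6 markers of the loop of Henle, Umod, with 148 and 47.6. In PT 17 of 20 proximal tubule markers were listed, of which the senescent library had 8 higher and 9 lower. In endo 0 of 10 endothelial markers were listed, so that label could not be checked, and the 6 plasma cell markers were listed nowhere. Outside PT most listed proximal tubule markers were lower in the senescent library. Their summed means were 31.2 in the senescent and 867 in the young library in Marco (19 of 20 listed), 28.2 and 702 in T (20 listed), 30.4 and 708 in B (19 listed), 23.7 and 294 in LOH (17 listed), 149.6 and 426 in endo (10 listed), and 17.3 and 51.7 in Neutro (3 listed). They were higher in 0 of the listed in Marco, T, B and LOH and in 1 of the listed in endo and in Neutro. Kap, an androgen-induced tubule gene, makes up most of the young sums. Without it the sums were 29.0 in the senescent and 225 in the young library in Marco, 25.4 and 197 in T, 29.1 and 209.8 in B, and 22.2 and 92.1 in LOH. Without it they were 252 and 242 in PT, 145 and 132 in endo and 14.6 and 9.06 in Neutro, so that in these 3 the senescent sum was not the lower one. The part of the tubule markers in the results below was not tested.

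Across clusters, the chaperone genes were mostly higher in PT and lower in LOH, endo and Neutro, and went both ways in Marco, T and B. Most listed genes of any kind were also higher in PT and lower in Neutro, so those directions are not particular to the members. In PT 33 of 46 listed members (71.7%) were higher in the senescent library, beside 78.4% of all listed genes there. The median log2 fold change of these 46 members in the authors' deposited table was 0.56, beside 1.22 for all listed genes. In LOH all 14 listed members were lower, beside 52.2% of all listed genes. In endo 11 of 14 were lower (51.8% of all listed genes), and in Neutro all 4 (93.7%). In Marco 13 of 28 members were higher (58.3% of all listed genes), in T 18 of 36 (44.8%) and in B 12 of 34 (28.2%). The share of lower members was thus above that of all listed genes in LOH and endo, and by less in Marco (53.6% against 41.7%), PT (28.3% against 21.6%) and Neutro (100% against 93.7%).

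By the authors' deposited table, the adjusted p was passed by all 46 listed members in PT (100% of all listed genes there, which is 5035 of 5037), by 13 of 28 in Marco (49.4%), 12 of 36 in T (30.7%), 3 of 34 in B (19.7%), 7 of 14 in LOH (14.7%), 0 of 14 in endo (0.973%) and 0 of 4 in Neutro (0%). Calls past both thresholds in the authors' deposited table numbered 43 entries of 27 genes. In PT 13 of 46 members were called higher and 4 lower, beside 57.2% and 5.60% of all listed genes. In Marco 3 of 28 were called higher and 10 lower, beside 22.9% and 23.6%. In T 1 of 36 was called higher and 6 lower, beside 3.85% and 20.7%, and in B 0 of 34 and 2, beside 2.79% and 15.5%. In LOH 0 of 14 were called higher and 4 lower, beside 2.16% and 6.87%. None was called in endo, beside 0.389% higher and 0.584% lower, or in Neutro, where no gene was called. Some lower calls outside PT were of genes that stood higher in PT than in the cluster in the young library. Without such members, lower calls numbered 7 in Marco, 2 in T, 1 in B and 1 in LOH. Called members that were not listed in PT could not be compared and were kept in these counts. They were Hspd1, Hsph1 and Dnajc22 in Marco and Hspd1 in T and in LOH.

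**Figure D1:**
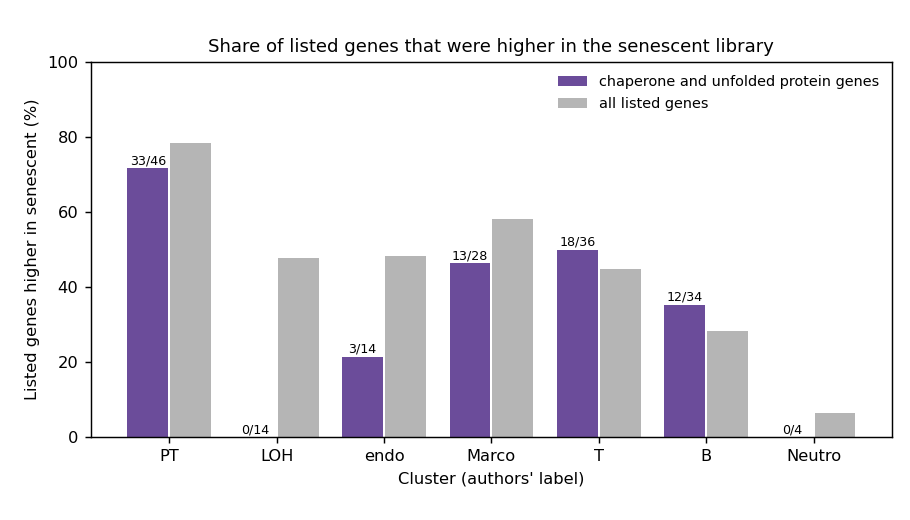
Share of listed genes that were higher in the senescent library (percent, vertical axis) in each cluster, for the chaperone and unfolded protein genes (purple, with the number higher over the number listed) and for all listed genes (grey). The members lie below all genes most clearly in LOH, with 0 of 14 higher, and in endo, with 3 of 14.

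Of the 67 genes, 47 were listed in 2 or more clusters. Among these, 13 were higher in the senescent library wherever listed, 12 were lower wherever listed, and 22 went both ways. Altogether 51 genes passed the adjusted p in at least 1 cluster and 16 in none. The 51 include all 46 members listed in PT, where 5035 of 5037 listed genes passed. The counts of this paragraph were not made over all genes, so they have no background beside them. Every cluster draws on the same 2 libraries, so agreement between clusters is not independent.

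**Figure D2:**
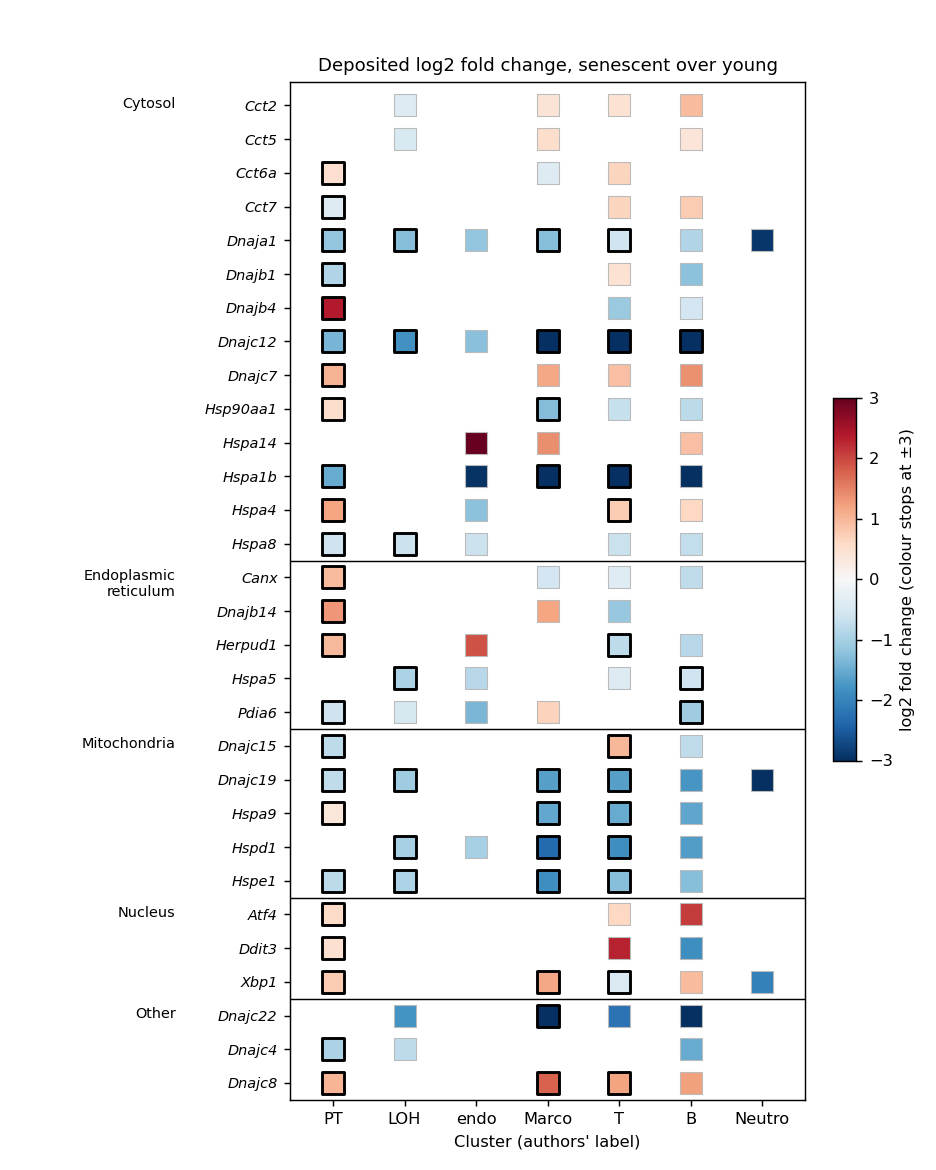
Log2 fold change, senescent over young, from the authors' deposited table for the members listed in 3 or more clusters (rows, by compartment) in each cluster (columns), with red for higher and blue for lower in the senescent library and colour that stops at ±3. Black frames mark an adjusted p of at most 0.05 and blank places are not listed. The rows of Dnaja1, Dnajc12, Hspa1b, Hspa8, Hspa5, Dnajc19, Hspd1, Hspe1, Dnajc22 and Dnajc4 are blue wherever listed. Those of Dnajc7, Hspa14, Atf4 and Dnajc8 are red wherever listed.

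The stress-inducible Hsp70 genes of the cytosol were lower in the senescent library in every cluster that lists them. Hspa1b had means of 0.216 in the senescent and 0.615 in the young library in PT, 0.137 and 1.15 in Marco, 0.0797 and 1.26 in T, 0.0343 and 0.552 in B, and 0.578 and 4.51 in endo. It was thus 2.85-fold lower in PT, 8.38-fold in Marco and 15.8-fold in T, where it passed, and it did not pass in B and endo. Its near-identical neighbour Hspa1a was 2.99-fold lower in PT, at 0.179 and 0.536, and passed there. In T the means of Hspa1a were 0.0130 and 0.494, and it did not pass. In the build mm10, Hspa1b lies on chromosome 17 from 34956429 to 34959238 and Hspa1a from 34969359 to 34972156, with 10120 bases and no other annotated gene between them. How reads that fit both were split was not given in the sources used here, so the values of these 2 genes are best read together.

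Hspa8, the constitutive Hsp70 that also uncoats clathrin vesicles, differed by less and in the same direction. Its means were 9.67 in the senescent and 14.9 in the young library in PT, 6.72 and 10.6 in LOH, 8.80 and 13.7 in endo, 8.25 and 13.2 in T, and 7.47 and 12.4 in B. It was between 1.54-fold lower in PT and 1.66-fold lower in B, and passed in PT and LOH.

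Dnaja1, a J-domain partner of Hspa8, was the only member listed in all 7 clusters, and its mean was lower in the senescent library in each. It had means of 2.53 in the senescent and 5.71 in the young library in PT, 1.49 and 3.60 in LOH, 2.40 and 5.80 in Marco, and 3.96 and 5.99 in T, and passed in these 4 clusters. In endo (2.54 and 5.74), B (3.68 and 6.89) and Neutro (1.48 and 11.3) it did not pass. Set against its PT mean, Dnaja1 was at 94.8% in Marco and 156.7% in T in the senescent library, and at 101.6% and 104.9% in the young library. Dnajb1, the heat-induced J-domain partner of Hsp70, was 1.87-fold lower in PT (0.238 and 0.446), where it passed. Its means were 0.403 and 0.292 in T and 0.386 and 0.905 in B, neither of which passed.

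**Figure D3:**
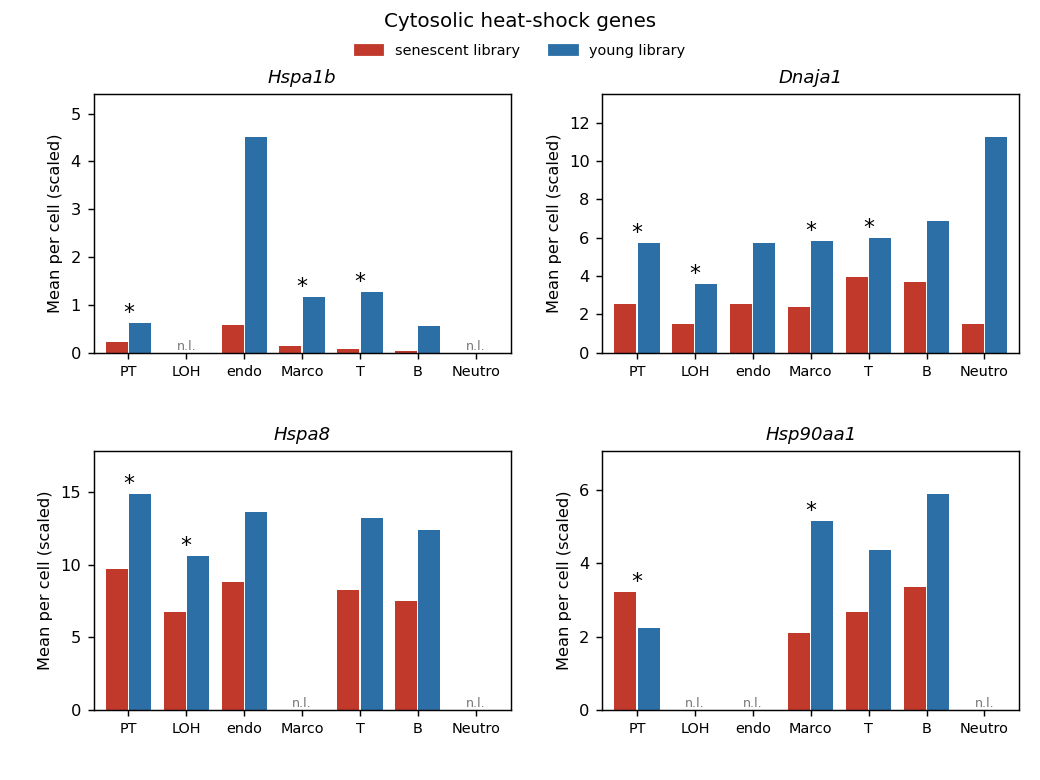
Mean per cell, scaled by the authors, of Hspa1b, Dnaja1, Hspa8 and Hsp90aa1 (vertical axes from 0) in each cluster in the senescent (red, left) and the young library (blue, right), where a star marks an adjusted p of at most 0.05 and n.l. a gene that is not listed. Each bar is 1 library, and only Hsp90aa1 in PT stands higher in the senescent library, at 3.22 against 2.23.

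Other heat-shock genes went both ways. Hsp90aa1, the inducible Hsp90, was 1.44-fold higher in PT, at 3.22 in the senescent and 2.23 in the young library, and passed. In Marco it was 2.45-fold lower, at 2.11 and 5.17, and passed. In T (2.68 and 4.36) and B (3.37 and 5.89) its means were lower without passing. Hsp90ab1, the constitutive Hsp90, was listed only in PT and was 1.58-fold higher, at 8.15 and 5.15.

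Hsph1, an Hsp110 protein that exchanges nucleotide on Hsp70, was 3.17-fold lower in Marco, at 0.231 in the senescent and 0.733 in the young library, and passed. Its relatives Hspa4 and Hspa4l were higher in PT, at 0.649 and 0.286 for Hspa4 and at 0.245 and 0.103 for Hspa4l. Hspa4 also passed in T, at 0.821 and 0.481, and its means in B (0.819 and 0.530) and endo (0.711 and 1.66) did not pass. The small heat-shock gene Hspb1 was listed only in endo, at 0.907 and 6.81, and did not pass. Hspa14 had higher means in Marco (0.355 and 0.136) and B (0.642 and 0.342), and in endo was listed at 0.255 in the senescent library and at 0 in the young library. Hspbp1, another nucleotide exchange factor, had means of 0.482 and 0.0192 in T. None of the entries of Hspa14 and Hspbp1 passed.

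Immediate early genes, which tissue digestion and stress induce, moved the other way from the inducible Hsp70 genes. All listed genes of that list were higher in the senescent library, 14 of 22 being listed in PT, 12 in LOH, 11 in endo, 19 in Marco, 10 in T, 11 in B and 2 in Neutro. Their summed means were 46.5 in the senescent and 4.75 in the young library in PT, 137.9 and 11.2 in Marco, and 37.1 and 6.75 in T. In LOH they were 37.2 and 8.76, in endo 55.0 and 5.09, in B 56.0 and 14.7, and in Neutro 30.3 and 9.41. All 14 passed in PT, where nearly all listed genes did. All 19 passed in Marco (49.4% of all listed genes), 8 in LOH (14.7%), 2 in endo (0.973%), 2 in T (30.7%), 2 in B (19.7%) and 0 in Neutro, so that the share passing in T and B was below or near that of all listed genes. Their part in the chaperone values was not tested.

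The cytosolic J-domain genes of PT other than those above were higher, with 1 exception. Dnajb4 was 5.22-fold higher, at 0.807 in the senescent and 0.155 in the young library, which was the largest fold among the members in PT. Dnajc21, a ribosome biogenesis factor, was 3.27-fold higher (0.571 and 0.175), Dnajc5, the cysteine string protein, 2.70-fold (0.542 and 0.200) and Dnajc7 2.06-fold (0.548 and 0.266). Dnaja2, Dnajb2, Dnajc2 and Dnajc24 passed in PT with folds from 1.42 to 1.94. Dnajc7 also had higher means in Marco (0.812 and 0.366), T (0.970 and 0.523) and B (2.06 and 0.798), Dnajc5 in Marco (0.608 and 0.297), Dnajc24 in Marco (0.357 and 0.135) and Dnajc21 in T (0.541 and 0.381), none of which passed. The means of Dnajb4 were 0.142 and 0.310 in T and 0.332 and 0.486 in B, and did not pass.

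The exception was Dnajc12, a co-chaperone of the aromatic amino acid hydroxylases. It had means of 2.16 in the senescent and 5.67 in the young library in PT, 0.638 and 2.25 in LOH, and 1.18 and 2.80 in endo. In immune clusters its means were 0.302 and 4.15 in Marco, 0.244 and 4.23 in T and 0.160 and 3.67 in B. It passed in all of these clusters but endo, and was 2.62-fold lower in PT against 13.8-fold in Marco, 17.4-fold in T and 23.0-fold in B. Beside this, its senescent mean was 13.9% of the PT mean in Marco, 11.3% in T and 7.38% in B, and its young mean 73.2%, 74.7% and 64.8%. For proximal tubule markers listed in both clusters, the median was 8.54% of the PT mean in the senescent and 111% in the young library in Marco (16 genes), 7.59% and 91.5% in T (17 genes), and 7.62% and 68.6% in B (16 genes).

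Genes of the chaperonin TRiC differed by less than 2-fold in every listing. In T all 5 listed subunits (Cct2, Cct3, Cct4, Cct6a and Cct7) and in B all 6 (Cct2, Cct4, Cct5, Cct7, Cct8 and Tcp1) had higher means in the senescent library, and none passed. In B these ranged from 1.31-fold for Cct5 (1.30 in the senescent and 0.989 in the young library) to 1.94-fold for Tcp1 (0.939 and 0.483) and for Cct2 (2.02 and 1.04). In LOH all 4 listed subunits had lower means, from 0.809 and 1.06 for Cct2 to 0.727 and 1.29 for Tcp1, and none passed. The only passing entries were in PT, where Cct6a was 1.42-fold higher (1.25 and 0.883) and Cct7 was 1.30-fold lower (0.655 and 0.854). In Marco the means of Cct2 (1.36 and 1.02) and Cct5 (1.30 and 0.898) were higher and that of Cct6a (0.920 and 1.21) lower, without passing. Median deposited log2 fold changes of the listed subunits in the authors' deposited table were 0.62 in B, 0.51 in T and -0.46 in LOH, beside -1.15, -0.54 and -0.39 for all listed genes.

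Genes of the endoplasmic reticulum were mostly higher in PT and lower in B, as were most of all listed genes there. In PT 12 of 14 listed members were higher in the senescent library (85.7%, near the 78.4% of all listed genes there), and all 14 passed, as did 100% of all listed genes, rounded. In Marco 5 of 7 were higher (58.3% of all listed genes) and 1 passed (49.4%). In T 3 of 8 were higher (44.8%), and in B all 6 were lower (71.8% of all listed genes). In LOH and endo 0 of 2 and 1 of 4 were higher, beside 47.8% and 48.2% of all listed genes. On the scale of log2 of the ratio of means after adding 1 to each, the median over members that reached a mean of 0.1 in either library was 0.32 in PT, 0.42 in Marco and -0.22 in T, beside 0.23, 0.23 and -0.11 for all listed genes. Median log2 fold changes in the authors' deposited table were 0.83 in PT, 0.70 in Marco and -0.38 in T, beside 1.22, 0.91 and -0.54. The order against all listed genes thus depended on the scale in each of these clusters.

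In PT 4 of the 14 listed members of the reticulum were called higher (28.6%), beside 57.2% of all listed genes there, and all 4 were J-domain genes. Dnajc1 was 3.07-fold higher (0.463 in the senescent and 0.151 in the young library), Dnajc10, a reductase that helps degrade misfolded proteins, 2.86-fold (0.234 and 0.0818), Dnajb14 2.52-fold (0.442 and 0.175) and Dnajb9, a co-chaperone that represses the stress sensor Ire1, 2.42-fold (0.642 and 0.266). Herpud1, which assembles the degradation machinery of the reticulum membrane, had means of 3.12 and 1.58 in PT, and the lectin chaperone genes Canx and Calr had 2.35 and 1.22, and 3.06 and 2.04. Hsp90b1, the Hsp90 of the reticulum, was 1.78-fold higher (3.56 and 2.00). Among disulfide isomerases, Pdia4 (0.602 and 0.340) and Pdia3 (1.84 and 1.25) were higher and Pdia6 (1.03 and 1.58) was lower. Dnajb12 (0.388 and 0.267) and Dnajc3 (0.859 and 0.648) were higher, and Dnajb11, a cofactor of BiP, was lower at 0.472 and 0.713.

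**Figure D4:**
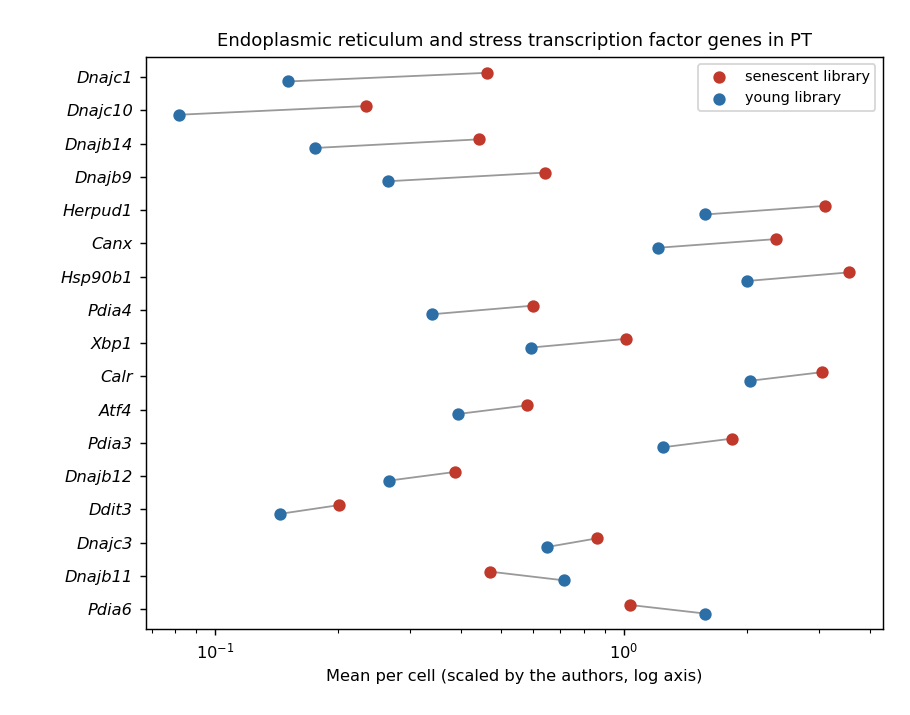
Means per cell in PT, scaled by the authors (log axis), of the listed genes of the endoplasmic reticulum and the 3 stress transcription factors in the senescent (red) and the young library (blue), sorted by fold, 1 library per point. Lines join the libraries of 1 gene, levels are to be compared within a gene only, and all genes but Dnajb11 and Pdia6 were higher in the senescent library.

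Hspa5, which encodes BiP and is a main target of the unfolded protein response, was not listed in PT or Marco. Its means were lower in the senescent library where listed, at 1.69 against 3.26 in LOH, 2.48 against 3.76 in B, 2.11 against 3.77 in endo and 3.04 against 3.98 in T. The values in LOH and B passed. Pdia6 was 2.11-fold lower in B, at 1.01 and 2.12, and passed there. It had means of 1.12 and 1.59 in LOH, 1.27 and 3.28 in endo and 1.91 and 1.17 in Marco, none of which passed.

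Sdf2l1, a luminal partner of the J-domain proteins that serve BiP, was the only member of the reticulum called higher in Marco. That is 1 of 7 listed members (14.3%), beside 22.9% of all listed genes there. Sdf2l1 had means of 1.62 in the senescent and 0.413 in the young library in Marco, a 3.91-fold difference, and in T of 0.777 and 0.140 without passing. Calr was at 4.76 and 3.06 in Marco and did not pass. Herpud1 was 1.72-fold lower in T (0.810 and 1.40), where it passed, and had means of 1.03 and 1.83 in B and 2.36 and 0.629 in endo, which did not. Canx had lower means in Marco (1.79 and 2.62), T (1.19 and 1.53) and B (1.45 and 2.45), and Pdia3 in B (1.97 and 2.76), none of which passed. The remaining entries of this compartment, of Dnajb11 in endo, Dnajb12, Dnajb14, Dnajc1 and Dnajc10 in T, Dnajb14, Dnajc14 and Dnajc16 in Marco and Hspa13 in B, did not pass.

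The 3 stress transcription factors were higher in PT (78.4% of all listed genes) by less than 2-fold. None was called higher there, beside 57.2% of all listed genes. Their median log2 fold change in the authors' deposited table was 0.57 in PT, beside 1.22 for all listed genes. Xbp1, which is spliced to its active form by Ire1 and also shapes secretory cells, had means of 1.01 in the senescent and 0.595 in the young library in PT, 2.22 and 0.990 in Marco and 0.480 and 0.656 in T. It passed in all 3 and was called in Marco, where it was 2.24-fold higher. In B it had 0.845 and 0.436 and in Neutro 1.09 and 4.51, without passing. Atf4, the main factor of the integrated stress response, was 1.48-fold higher in PT (0.581 and 0.393), with 0.725 and 0.474 in T and 1.01 and 0.238 in B. Ddit3, its pro-apoptotic target, was 1.39-fold higher in PT (0.201 and 0.145), with 0.437 and 0.0888 in T and 0.155 and 0.560 in B. Neither passed outside PT.

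Mitochondrial chaperone genes were mostly lower in the senescent library, with larger folds in Marco and T than in PT for Hspe1 and Dnajc19. Hspd1, the Hsp60 chaperonin, had means of 1.17 in the senescent and 5.87 in the young library in Marco, 1.56 and 5.65 in T, 1.99 and 3.99 in LOH, 1.53 and 4.85 in B, and 3.42 and 6.82 in endo. It was 5.01-fold lower in Marco, 3.62-fold in T and 2.00-fold in LOH, and passed in these 3. It was not listed in PT. Hspe1, its Hsp10 lid, had means of 10.8 and 19.0 in PT, 5.00 and 9.56 in LOH, 3.34 and 12.2 in Marco, 5.14 and 12.4 in T, and 5.53 and 13.4 in B. It passed in all of these but B and was 1.76-fold lower in PT against 3.66-fold in Marco. Hspd1 and Hspe1 are neighbours on chromosome 1, from 55077833 to 55088243 and from 55088148 to 55091317 in mm10, where their annotated spans overlap by 96 bases.

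Hspa9, the mitochondrial Hsp70, was higher in PT and lower in the immune clusters. Its means were 2.50 in the senescent and 1.94 in the young library in PT, 0.709 and 2.09 in Marco, 0.569 and 1.62 in T and 0.570 and 1.71 in B, and it passed in all but B. Dnajc19, a subunit of the import motor that works with Hspa9, had means of 2.999 and 5.09 in PT, 1.35 and 2.83 in LOH, 1.14 and 3.59 in Marco and 1.07 and 3.39 in T, and passed in these 4. It had 1.22 and 4.13 in B and 0.106 and 2.32 in Neutro, without passing. Dnajc15, a related import motor protein, had means of 1.24 and 2.13 in PT and 3.25 and 1.63 in T, and passed in both. In T it was 1.99-fold higher, just under the fold needed for a call, and it was at 0.590 and 1.01 in B without passing.

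**Figure D5:**
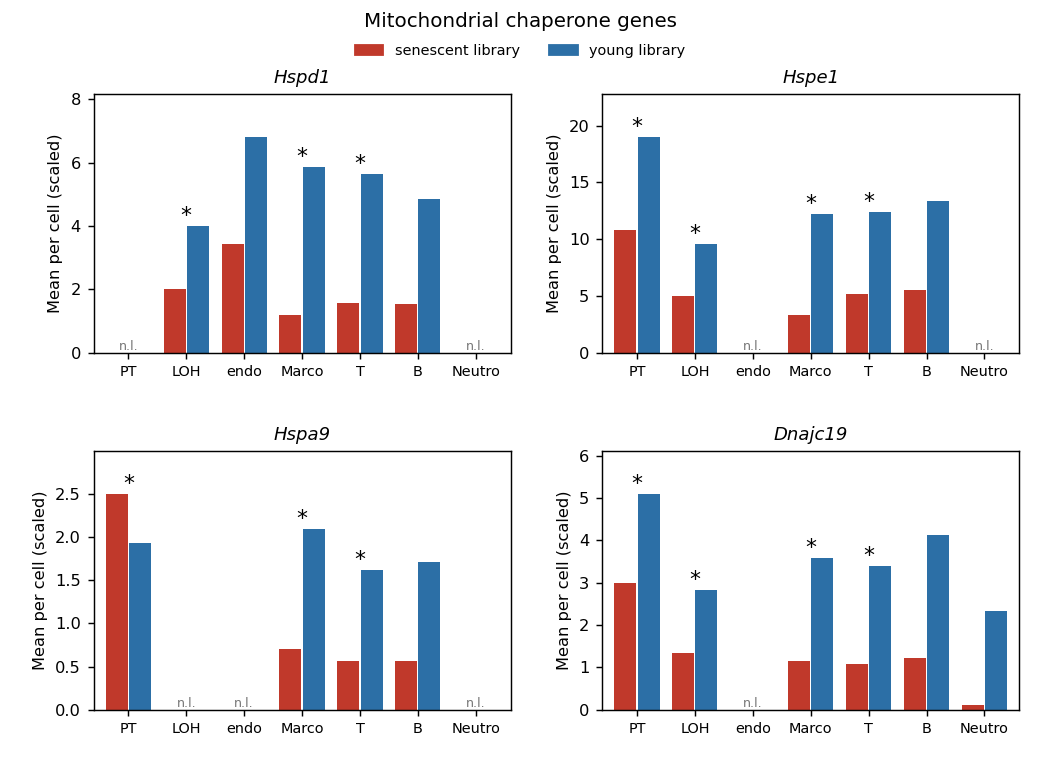
Mean per cell, scaled by the authors, of Hspd1, Hspe1, Hspa9 and Dnajc19 (vertical axes from 0) in each cluster in the senescent (red, left) and the young library (blue, right), where a star marks an adjusted p of at most 0.05 and n.l. a gene that is not listed. Each bar is 1 library, and only Hspa9 in PT stands higher in the senescent library, at 2.50 against 1.94.

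In Marco, T, PT, B and LOH the mitochondrial members had a lower median than those of the cytosol and of the endoplasmic reticulum. In endo, with 2 mitochondrial members, they did not. In Neutro the 1 mitochondrial member was not below the 1 cytosolic member, and 0 of the reticulum were listed. On the log2 scale with 1 added to each mean, the median over mitochondrial members was -1.10 in Marco, -1.08 in T and -0.48 in PT, beside 0.23, -0.11 and 0.23 for all listed genes, each over 5 members. It was -0.96 in B over 6 members and -0.74 in LOH over 3, beside -0.27 and -0.11 for all listed genes. Beside this, for mitochondrial members listed in both clusters, the senescent mean was at a median of 30.8% of the PT mean in Marco (3 genes), 41.6% in T and 44.2% in B (4 genes each), and the young mean at 70.4%, 71.6% and 75.7%. All of these genes but Hspa9 in Marco stood higher in PT than in the other cluster in the young library. Dnaja3 in Marco (0.125 and 0.295) and Dnajc30 in B (0.162 and 0.549) did not pass. Dnajc11 was 1.48-fold higher in PT (0.238 and 0.161) and passed, and in endo was listed at 0.320 in the senescent library and at 0 in the young library.

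Cytosolic members as a group had no firm direction. Their median on the same scale was 0.18 in PT, 0.01 in Marco and 0.16 in T, and the sign in each depended on the setting: centred on all listed genes the median was -0.047 in PT and -0.219 in Marco, and over members that passed it was -0.989 in Marco and -0.779 in T.

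Of J-domain genes with another or an unsure location, Dnajc8, which takes part in splicing, was higher in all 4 clusters that list it. Its means were 0.596 in the senescent and 0.296 in the young library in PT, 1.43 and 0.421 in Marco, 2.03 and 0.878 in T and 1.52 and 0.650 in B, and it was called in all but B. Dnajc13, an endosomal protein, was 3.36-fold higher in PT (1.00 and 0.299), with 0.444 and 0.692 in Marco without passing. Dnajc22 was 13.7-fold lower in Marco (0.0207 and 0.283) and had lower means without passing in LOH, T and B. Dnajc4 was 1.93-fold lower in PT (0.225 and 0.434) and had lower means without passing in LOH and B. Dnajc25 was 2.17-fold higher in PT (0.248 and 0.115) and had means of 0.267 and 0.749 in endo without passing. Dnajc9 in T (0.931 and 0.262) and Dnajc28 in Neutro (0.0336 and 1.20) did not pass.

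Other genes of the folding pathways were taken from lists. Of 19 partners of the heat-shock proteins, 12 were listed in PT, where nearly all listed genes passed and 78.4% were higher. Of these partners, 5 passed as higher and 6 as lower. They included Fkbp5, an Hsp90 co-chaperone of steroid receptors, at 0.418 in the senescent and 0.104 in the young library, Hsf2 at 0.228 and 0.0825, and Ahsa1, an activator of Hsp90, at 0.459 and 0.927. St13 (3.81 and 1.61) and Ptges3 (2.00 and 0.931) were also among those that passed as higher. Of 12 listed in each of Marco and T, 2 were higher in each, beside 58.3% and 44.8% of all listed genes. In Marco 0 passed as higher and 2 as lower, among them Fkbp4 at 0.381 and 1.29, and in T 1 and 5 passed, among them Ahsa1 at 0.603 and 1.44. Of all listed genes, 49.4% passed in Marco and 30.7% in T. In B 4 of 11 were higher (28.2% of all listed genes), in LOH 2 of 5 (47.8%), in endo 2 of 3 (48.2%) and in Neutro 0 of 2 (6.3%). None passed in these 4, beside 19.7% of all listed genes in B, 14.7% in LOH, 0.973% in endo and 0% in Neutro. Of 6 prefoldin subunits, which hand clients to TRiC, 3 were listed in PT, all lower (21.6% of all listed genes). All 3 passed, as nearly all listed genes did there. Pfdn1 was lower in Marco (0.805 and 2.43) and T (1.20 and 2.88). Pfdn5 was higher in Marco (6.64 and 3.98), and these 3 entries outside PT passed.

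Of 16 genes of unfolded protein signalling, 6 were listed in PT and all were called higher, beside 57.2% of all listed genes there. They were Cebpb, Sesn2, Creb3l2, Ppp1r15b, Ppp1r15a, which encodes the Gadd34 subunit that restores translation, at 0.296 in the senescent and 0.0331 in the young library, and the stress sensor gene Atf6 at 0.251 and 0.0609. In Marco 4 of 8 were called higher and 1 lower, beside 22.9% and 23.6% of all listed genes. Atf3 was among the higher ones at 2.87 and 0.218, and the lower one was Tmbim6 at 3.14 and 6.87. The entries of that list in the other clusters, 3 each in LOH, endo and T and 2 each in B and Neutro, did not pass. Of all listed genes, 14.7% passed in LOH, 0.973% in endo, 30.7% in T, 19.7% in B and 0% in Neutro. Atf3 is on the list of immediate early genes as well.

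Of 37 other folding and degradation genes of the endoplasmic reticulum, 17 were listed in PT, and all passed, as nearly all listed genes did there. Of these 10 were higher (58.8%, beside 78.4% of all listed genes) and 7 lower. Among them were Edem3 at 0.216 in the senescent and 0.0695 in the young library, Ssr3 at 1.15 and 0.522 and Ssr2 at 0.643 and 1.32. In Marco 12 of 13 were higher (58.3% of all listed genes) and 3 passed (49.4%), Erp29 (4.84 and 1.90), Manf (2.22 and 1.01) and Ssr4 (4.48 and 2.04). In T 11 of 22 were higher (44.8% of all listed genes), with 0 passing as higher and 2 as lower. In B 5 of 11 were higher (28.2%), with 1 passing as higher. Of all listed genes, 30.7% passed in T and 19.7% in B, in either direction. Of 14 genes of mitochondrial quality control, 10 were listed in PT, 5 higher and 5 lower, and all passed, as nearly all listed genes did there. They included Phb at 1.10 and 2.30 and the protease gene Yme1l1 at 0.620 and 0.227. In Marco all 8 listed were lower (41.7% of all listed genes) and 5 passed (49.4%), with Clpx, an unfoldase, at 0.289 and 1.18, and in T 8 of 9 were lower (55.2%) and 3 passed (30.7%). In B all 6 listed were lower (71.8%) and 1 passed (19.7%).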

How the data were processed

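Kidney cells of 1 senescent and 1 young library were sequenced. Cell Ranger 2.1.1 and the build mm10 are named in the submitters' processing notes; how cells were filtered and clustered, doublets treated and groups tested is not stated there or in the labels. The deposited table holds, per gene and cluster, a signal for each library that the authors averaged over cells on a scale that is not stated, the authors' log2 fold change and the authors' p-value and adjusted p-value. Columns were assigned to libraries by the descriptions in the labels. The deposited comparison's heading does not tell which library was senescent, so every direction rests on those descriptions. With 1 library per group, no test between the groups was made.

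Computed were ratios of means, counts past an adjusted p of 0.05 and an absolute log2 fold change of 1, and medians of log2 ratios after adding 1, over members reaching 0.1 in either library. Members and lists were chosen with earlier results of these data known. Named genes were up to 4 passing members per compartment, cluster and direction, those listed in 5 or more clusters and a fixed set of main chaperones; other members, and list genes beyond the 3 passing ones of largest fold, were named after their values were seen. All 67 members matched the reference table of the same build. Counting was tested on simulated data. Alternatives were other thresholds, pseudocounts, filters and name rules. Python 3.11.15, numpy 2.4.6, pandas 2.3.3 and matplotlib 3.10.9 were used.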

Additional observations from a re-analysis of the deposited data

Results flagged for a closer look

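Genes that passed the adjusted p in opposite directions in 2 clusters are given here by the difference of their log2 fold changes in the authors' deposited table. These differences were not tested, since each group had 1 library. Hspa9 was higher in PT and lower in Marco and T, with differences of 1.93 and 1.88. Hsp90aa1 was higher in PT and lower in Marco, with a difference of 1.83. Dnajc15 was higher in T and lower in PT, with a difference of 1.78, and Herpud1 was higher in PT and lower in T, with a difference of 1.76. Xbp1 was higher in PT and in Marco and lower in T, with differences of 1.22 and 1.62. Beside these, the median log2 fold change of all listed genes was 1.22 in PT, 0.91 in Marco and -0.54 in T. Listed genes at large thus also differed between PT or Marco and T, and the flagged differences are not particular to these members by size alone.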

How the results depend on the processing

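No paired analysis was possible because each group had 1 library, and for the same reason no library could be left out. With no limit on the fold change, 33 members passed as higher and 13 as lower in PT, 7 as lower in LOH and 3 as higher in T. With no adjusted p, 9 members were past the fold as higher in Marco, 7 as higher and 11 as lower in T, 3 and 13 in B, 3 and 8 in endo, and 4 as lower in Neutro. Without members whose young mean was higher in PT than in the cluster, an alternative chosen after seeing the data, lower calls numbered 1 in LOH, 2 in T and 1 in B. Members not listed in PT, such as Hspd1, could not be compared and were kept. An adjusted p of 0.01, a mean of at least 0.1 and a stricter reading of the gene names left every count within 1.5 times. The median of cytosolic members changed sign when centred on all listed genes, to -0.047 in PT and -0.219 in Marco, when only means of at least 1 were used, to -0.92 in Marco and -0.13 in T, and when only passing members were used, to -0.989 in Marco and -0.779 in T. The cause was not tested. Medians of the other compartments kept their sign in PT, Marco and T under each alternative. Depth is unknown, and means near 0 make large folds uncertain.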
